A study of Drosophila melanogaster with 9 samples.

Results

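Adult midguts of wild-type Oregon-R Drosophila melanogaster that had been treated with Pe and sampled at day 3, when the flies were 7 to 8 days old, were compared with midguts of sucrose-treated mock flies sampled at day 0, when the flies were 4 to 5 days old. Pe is the labels' abbreviation and they do not spell it out. Each group held 3 libraries, so 6 of the 9 small RNA libraries of the series belong to this comparison. The third group, Pe at day 0 in flies of 4 to 5 days, shared the model and its levels are given beside the others. The study's design names the start and the end of midgut regeneration as its subject, and the day 3 libraries stand for the later stage. Because treatment, day and age all differ between the groups, and no mock library at day 3 was analysed here, an effect of Pe and an effect of 3 more days of age cannot be told apart. All groups share the wild-type genotype. A whole midgut holds enterocytes, enteroendocrine cells, intestinal stem cells and their progeny, and visceral muscle is commonly dissected with it, so in these bulk samples fewer cells of a type and less RNA per cell cannot be told apart.

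MicroRNAs (miRNAs) are short RNAs that guide Argonaute proteins to messenger RNAs and lower their translation or stability. Each is cut from a hairpin precursor whose left and right strands are called the 5p and 3p arms, and usually one arm is retained far more often than the other. Neighbouring hairpins can be cut from one primary transcript, in which case the transcript carries them together while processing and decay act on each alone. In the fly midgut, miRNAs are known to act in stem cell self-renewal, in the choice between daughter cell types and in the ion balance of enterocytes.

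The 6 libraries held 224873 to 864119 miRNA reads, and Pe day 3 replicate 3 was the shallowest. One miRNA, miR-956-3p, took 69.8% to 78.5% of the reads in each, and the 5 most abundant took 93.2% to 96.2%. As a check of the tissue label, miR-263a, miR-281 and miR-31a summed to 37451 to 63484 reads per 1000000 miRNA reads (RPM) in mock and 60942 to 74420 RPM at Pe day 3. Most of that sum was miR-263a-5p, at 30625 to 54550.5 RPM in mock and 53005 to 65957 RPM at Pe day 3. The 5p arms of miR-281 were lower at Pe day 3, as given below. Markers of neurons and of testis were listed at 0 in all 6 libraries. The ovary markers summed to 0 to 16.5 RPM in mock and 0 to 27.5 RPM at Pe day 3, with miR-989 at 0, and the early embryo markers to 0 to 33.0 RPM and 0 to 23.1 RPM. Levels below are RPM scaled between libraries by trimmed mean of M values (TMM) factors, unless the sentence says RPM as deposited. The log2 changes are Pe day 3 over mock, on log2(scaled RPM + 4.02), with their SE from limma. Fold changes are these log2 changes put back on the linear scale, not ratios of the group means.

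Of 73 miRNAs that passed the filter on low values, 13 differed between Pe day 3 and mock, or 17.8% (limma, Benjamini-Hochberg adjusted p under 0.05). Higher at Pe day 3 were 9, or 12.3%, led by miR-34-5p, miR-10404-5p, miR-314-5p and miR-1-3p. Of these, miR-10404-5p passed the filter through the Pe libraries alone. Lower were 4, or 5.48%: miR-10-5p, miR-958-5p and the 5p arms of both miR-281 copies. The 3 libraries of one group lay beyond the 3 of the other for 22 miRNAs, or 30.1%, and 19 had an unadjusted p under 0.05. The scaling set where zero lay: the median log2 change of all 73 was 0.21 with TMM, 0.05 under median-of-ratios scaling, and 0.47 when RPM were left as deposited. The calls split into 5 higher and 5 lower under median-of-ratios scaling, and into 10 higher and 0 lower when RPM were left as deposited. In that limma fit to RPM as deposited 25 miRNAs had an unadjusted p under 0.05. For this reason some changes are also given after subtracting the median of 0.21.

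**Figure D1:**
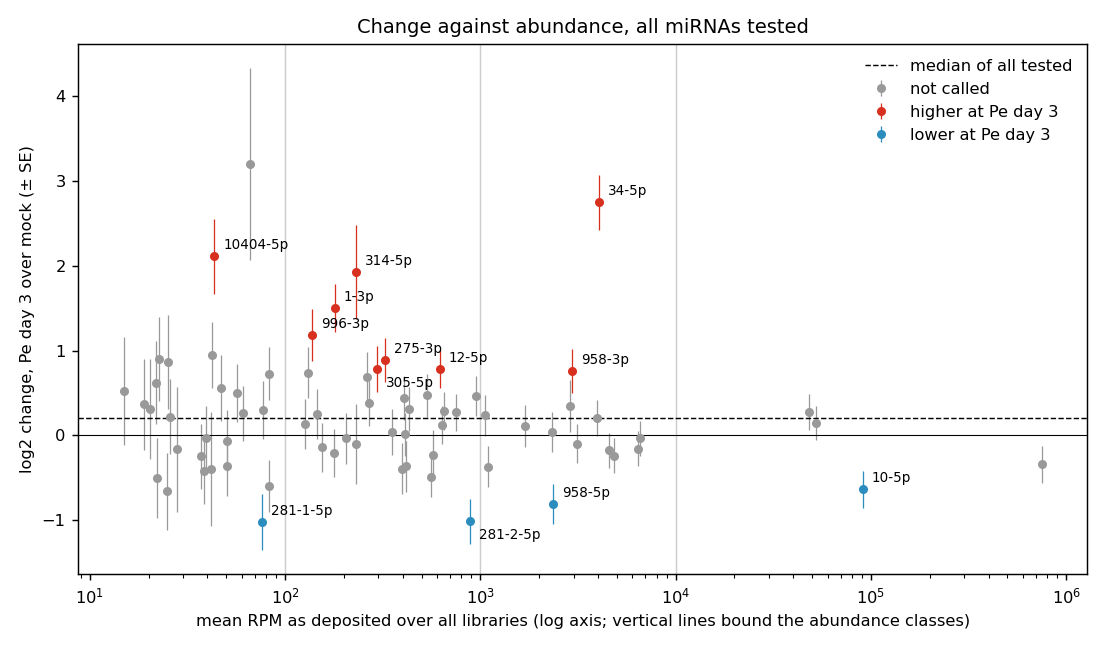
Each point is one of the 73 tested miRNAs. The x axis is mean RPM as deposited over all 9 libraries on a log scale, the y axis the log2 change of Pe day 3 over mock with its SE as a bar, and the dashed line the median of 0.21. miR-34-5p stands highest among called miRNAs at 2.75, and the 4 lower calls lie between -1.03 and -0.64.

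The most abundant class, with a mean of 10000 RPM or more, held 4 miRNAs and 93.9% of the reads. One of the 4 was called, and it was lower. miR-10-5p, whose gene lies in the Hox cluster of 3R, stood at 126494, 96758 and 122740 scaled RPM in the 3 mock libraries. The Pe day 3 libraries gave 77525, 65308 and 78509. Every Pe day 3 library was below every mock library, and the Pe day 0 libraries, at 87652, 109402 and 63859, covered the whole Pe day 3 range and part of the mock range. The log2 change was -0.64 ± 0.22 (adjusted p = 0.037), or 1.56-fold lower, and -0.85 relative to the median. The opposite arm, miR-10-3p, had 6722, 7884 and 6518 scaled RPM in mock and 5875, 6069 and 6960 at Pe day 3 (log2 change -0.16 ± 0.21, adjusted p = 0.63).

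The other miRNAs of the top class did not pass this test. miR-956-3p had 1048080, 669086 and 758521 scaled RPM in mock and 806143, 553808 and 584779 at Pe day 3. A scaled value can exceed the total of 1000000, as the TMM factor of mock replicate 1 was 0.749. The log2 change of miR-956-3p was -0.34 ± 0.22 (adjusted p = 0.36). In RPM as deposited it had 785144, 735796 and 722808 in mock and 748609, 700860 and 698305 at Pe day 3, again overlapping. miR-184-3p had 46822 to 62191 in mock and 55018 to 72354 at Pe day 3, with a log2 change of 0.15 ± 0.20 (adjusted p = 0.64) that turned to -0.0056 with median-of-ratios factors. miR-263a-5p, known as a repressor of sodium channel subunits in the fly gut, had 39449 to 57246 in mock and 52017 to 57079 at Pe day 3 (log2 change 0.28 ± 0.21, adjusted p = 0.44). For these 3 miRNAs the ranges of the groups overlapped in scaled RPM. In RPM as deposited those of miR-184-3p did not, at 46589 to 53916 in mock and 65699 to 71479.5 at Pe day 3. The next most abundant, miR-31a-5p, had 5234 to 8189 in mock and 5999 to 7834 at Pe day 3, again overlapping (log2 change -0.03 ± 0.21, adjusted p = 0.92).

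From 1000 to 10000 RPM, 3 of 14 miRNAs were called, 2 higher and 1 lower. miR-34-5p showed the widest separation of the whole comparison. It is cut from a hairpin at 3R:10100936-10101034 on the plus strand, in an exon of the noncoding gene lncRNA:CR43459 (BDGP6.54), and is known in flies as an adult miRNA that rises with age and protects the ageing brain. The mock libraries held 868, 1603 and 969 scaled RPM. The Pe day 3 libraries held 5035, 8652 and 9492. The lowest Pe day 3 library was over the highest mock library by a wide margin, and Pe day 0 lay in between for 2 of its 3 libraries, at 2495, 2722 and 1361. The rise was 6.72-fold, with a log2 change of 2.75 ± 0.33 (limma, adjusted p = 8.27e-05), 2.54 above the median. The group means were 1147 ± 398 and 7726 ± 2369 scaled RPM (SD over 3 libraries).

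miR-958 gave the other calls of that class, one in each direction. Its hairpin lies at 3L:22669289-22669380 on the minus strand, in an exon of lncRNA:CR43270. miR-958-5p had 3318, 3100 and 2801 scaled RPM in mock and 2006, 1527 and 1735 at Pe day 3. Every Pe day 3 library was lower, and the Pe day 0 libraries were at 2744, 2640 and 1611. The log2 change was -0.81 ± 0.23 (adjusted p = 0.016), 1.75-fold lower. miR-958-3p moved the other way, from 2433, 2039 and 1580 scaled RPM in mock to 2658, 3061 and 4681 at Pe day 3. The groups did not overlap, and the Pe day 0 libraries, at 2731, 4141 and 2296, reached from the mock range into that of Pe day 3. Its log2 change was 0.76 ± 0.26 (adjusted p = 0.037), 1.69-fold higher and 0.55 above the median.

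From 100 to 1000 RPM, 7 of 29 miRNAs were called, 6 higher and 1 lower. miR-1-3p, the classical muscle miRNA, had 102, 92.7 and 116 scaled RPM in mock, and 288, 293 and 320 at Pe day 3. The values within a group lay close together and the groups were far apart, while the Pe day 0 libraries, at 74.4, 110 and 129, lay around the mock values. The rise was 2.84-fold (log2 change 1.51 ± 0.28, adjusted p = 2.70e-04), and the group means were 103 ± 11.7 and 300.3 ± 17.5 scaled RPM (SD over 3 libraries). The muscle list held 2 hairpins, and all of its signal was this miRNA: it summed to 76.3 to 110 RPM as deposited in mock and 267 to 382 RPM at Pe day 3, with miR-133 at 0 in the 6 libraries. The part of muscle content in this rise was not tested.

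miR-314-5p had 90.5, 130 and 67.4 scaled RPM in mock and 157, 613 and 499 at Pe day 3. The groups did not overlap, but Pe day 3 replicate 1 was much nearer to mock than to its own group. Its log2 change was 1.93 ± 0.55 (adjusted p = 0.037). The mir-314 hairpin at 3L:11773012-11773101 lies on the plus strand, 629 bases from the mir-956 hairpin, which is on the opposite strand. The opposite arm, miR-314-3p, had 371 to 499 scaled RPM in mock and 576, 245 and 253 at Pe day 3, so replicate 1 was again the library that differed from the other 2 (log2 change -0.37 ± 0.30, adjusted p = 0.45).

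miR-996-3p rose 2.27-fold, from 77.3, 120 and 61.1 scaled RPM in mock to 212, 241 and 142 at Pe day 3 (log2 change 1.18 ± 0.30, adjusted p = 0.0085). The lowest Pe day 3 value was above the highest mock value, and the Pe day 0 libraries, at 119, 103 and 99.7, stayed within the mock range. miR-996 and its neighbour miR-279 are known in flies for restraining neural fates in sensory lineages. miR-279-3p was not called: mock held 400, 478 and 413 scaled RPM and Pe day 3 held 518, 348 and 190 (log2 change -0.40 ± 0.30, adjusted p = 0.44).

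Both called members of the miR-275 cluster were higher. miR-275-3p had 206, 205 and 217 scaled RPM in mock and 344, 475 and 365 at Pe day 3, with Pe day 0 at 276, 384 and 332. It rose 1.85-fold (log2 change 0.89 ± 0.26, adjusted p = 0.017). miR-305-5p had 206, 260 and 154 in mock and 353, 397 and 309 at Pe day 3, a 1.72-fold rise (log2 change 0.79 ± 0.27, adjusted p = 0.037). miR-305 is known for its role in the adaptive balance of fly intestinal stem cells, through Notch and insulin signalling. Its dominant arm, miR-305-3p, had 3793, 2590 and 2725 in mock and 3583, 2622 and 2328 at Pe day 3, with a log2 change of -0.10 ± 0.23 (adjusted p = 0.78).

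miR-12-5p, cut from an intron of Gmap on the X chromosome, had 394, 441 and 533 scaled RPM in mock and 855, 698 and 793 at Pe day 3. It rose 1.72-fold (log2 change 0.78 ± 0.23, adjusted p = 0.016), and of the Pe day 0 libraries, at 492, 593 and 594, the first lay within the mock range and the others between the groups. The lower call of this class was miR-281-2-5p, from an intron of Oda on 2R. In mosquitoes miR-281 is a midgut miRNA. It had 1771, 1332 and 1009 scaled RPM in mock and 604, 631 and 749 at Pe day 3, with every Pe day 3 library lower. The fall was 2.02-fold (log2 change -1.02 ± 0.27, adjusted p = 0.013), and the Pe day 0 libraries were already at 813, 401 and 791.

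Below 100 RPM, 2 of 26 miRNAs were called, or 7.69%, one in each direction. The median SE of a log2 change was 0.42 in this class, against 0.27, 0.24 and 0.21 in the classes above it. A change therefore had to be larger here to pass. miR-10404-5p rose 4.33-fold, from 11.3, 10.02 and 8.43 scaled RPM in mock to 32.4, 65.3 and 81.9 at Pe day 3 (log2 change 2.11 ± 0.44, adjusted p = 8.71e-04). Its mock libraries held only 6, 4 and 4 reads, each below the filter of 20.1 RPM. It was therefore tested only because the Pe libraries passed that filter. The Pe day 0 libraries, at 32.9, 92.6 and 31.0, covered the Pe day 3 range. Of its 5 annotated copies, 2 lie within precursor ribosomal RNA, and reads of the copies cannot be assigned to one of them. In the other direction, miR-281-1-5p had 130, 97.7 and 114 in mock and 52.3, 43.5 and 67.0 at Pe day 3, 2.04-fold lower (log2 change -1.03 ± 0.33, adjusted p = 0.030). The mir-281-1 and mir-281-2 hairpins lie 128 bases apart on the same strand and their 5p arms fell by 1.03 ± 0.33 and 1.02 ± 0.27 on the log2 scale. Their shared 3p arm, miR-281-3p, had 22.6 to 37.9 in mock and 12.5 to 29.8 at Pe day 3 (log2 change -0.66 ± 0.46, adjusted p = 0.39).

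**Figure D2:**
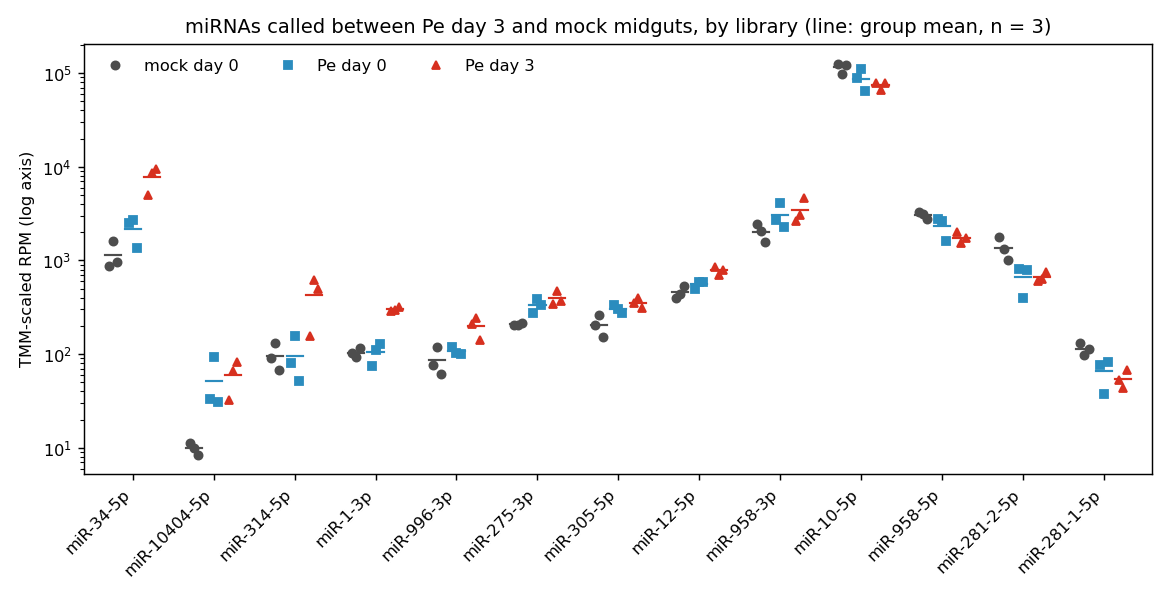
The 13 called miRNAs are ordered by log2 change from left to right. Points are libraries in TMM-scaled RPM on a log axis, with a line at each group mean (n = 3). For miR-34-5p the Pe day 3 libraries lie at 5035 to 9492 and the mock libraries at 868 to 1603, and for miR-1-3p the Pe day 0 libraries lie with mock.

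Several miRNAs stood near the threshold without passing. miR-308-3p had 3.77, 42.6 and 0 scaled RPM in mock and 203, 73.2 and 67.0 at Pe day 3, the largest log2 change of the comparison at 3.20, with an SE of 1.13 (adjusted p = 0.11). The mock libraries were themselves spread from 0 to 42.6, below every Pe day 3 library. Of these only the library at 42.6 reached the filter of 20.1 RPM, so miR-308-3p was tested only because Pe libraries passed it. The hairpin lies in an intron of the ribosomal protein gene RpS23. Both arms of miR-278, a miRNA of energy balance and insulin response, were higher in every Pe day 3 library: miR-278-3p had 19.0 to 30.1 in mock and 43.5 to 59.8 at Pe day 3 (log2 change 0.95 ± 0.39, adjusted p = 0.10), and miR-278-5p had 52.8 to 65.3 and 67.2 to 122 (0.73 ± 0.31, adjusted p = 0.11). The miRNA miR-956-5p, the scarce arm of the dominant hairpin, had 86.4 to 102 in mock and 101, 180 and 212 at Pe day 3 (0.74 ± 0.30, adjusted p = 0.10). miR-1012-3p, from an intron of Lerp, had 115.1 to 202 and 190 to 378 (0.68 ± 0.30, adjusted p = 0.11). miR-11-5p, from an intron of E2f1, had 545 to 668 in mock and 603, 386 and 331 at Pe day 3 (-0.49 ± 0.24, adjusted p = 0.18).

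A further 72 miRNAs were listed in the series but did not pass the filter, and 54 of them were listed in at least one of the 6 libraries compared. They were not in the main test of miRNAs, though the alternative run without the filter included them. Of these, 6 were listed in all 6 libraries. miR-1007-5p, cut from a spliced intron in the manner of a mirtron, was listed at 0 in all 3 mock libraries and all 3 Pe day 0 libraries. It had 8, 17 and 16 reads at Pe day 3, or 9.26, 42.5 and 71.2 RPM as deposited. The reverse pattern was shown by miR-137-3p, with 5, 4 and 6 reads in mock, 12, 0 and 6 at Pe day 0, and 0 in each Pe day 3 library. Both patterns rest on few reads, and the smallest value listed in any library was 2 reads, so a 0 can hide a single read.

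By arm, 9 of 39 tested 5p arms were called (5 higher, 4 lower) and 4 of 34 3p arms (4 higher, 0 lower). By dominance, judged by mean RPM over all 9 libraries, 7 of 25 arms that were the more abundant of their hairpin were called and 3 of 24 that were the less abundant. By this rule miR-958-3p counted as the more abundant arm, although miR-958-5p was the larger in every mock library. Of 24 miRNAs with a single tested arm, 3 were called. Whether these shares differ was not tested.

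The ratio of the arms within a library does not depend on the scaling between libraries. Of 24 hairpins with both arms tested, 4 changed their arm balance, or 16.7%, with 2 toward the 5p arm and 2 toward the 3p arm (8.33% each). A further hairpin had an unadjusted p under 0.05. The groups did not overlap for 4 hairpins, again 16.7%, but these were miR-34, miR-958, miR-996 and the uncalled miR-277. The median change of all 24 was -0.17 on the log2(5p/3p) scale. With the spread shared over hairpins, the called balances had 92.1 degrees of freedom in limma, so their smallest p-values may overstate the evidence.

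For miR-34, the 5p arm held 62.9%, 68.7% and 55.6% of hairpin reads in mock and 85.1%, 88.9% and 92.2% at Pe day 3. The groups were well apart, and the Pe day 0 libraries, at 70.1%, 67.7% and 53.4%, overlapped the mock range. The log2(5p/3p) rose by 2.29 ± 0.51 (limma, adjusted p = 3.66e-04). miR-34-3p itself had 511, 731 and 775 scaled RPM in mock and 881, 1076 and 808 at Pe day 3. Every Pe day 3 value of the 3p arm was above the mock values, by a smaller factor (log2 change 0.46 ± 0.23, adjusted p = 0.20).

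For miR-958 the dominant arm switched. The 5p arm held 57.7%, 60.3% and 63.9% of hairpin reads in mock and 43.0%, 33.3% and 27.0% at Pe day 3, so the 5p arm held the majority in each mock library and the minority in each Pe day 3 library. The Pe day 0 libraries, at 50.1%, 38.9% and 41.2%, lay below every mock library and overlapped the Pe day 3 range. The log2(5p/3p) fell by 1.57 ± 0.36 (adjusted p = 3.66e-04), while the hairpin total was not among the called ones.

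For miR-996 the 5p share went from 39.7%, 30.4% and 37.0% in mock to 24.8%, 17.6% and 13.6% at Pe day 3. The Pe day 0 libraries, at 33.1%, 36.2% and 35.3%, lay within the mock range. The log2(5p/3p) fell by 1.27 ± 0.31 (adjusted p = 6.09e-04), with an adjusted p of 0.051 when no filter was applied. miR-996-5p was not called, with 50.9, 52.6 and 35.8 scaled RPM in mock and 69.8, 51.4 and 22.3 at Pe day 3 (log2 change -0.07 ± 0.37, adjusted p = 0.92).

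For miR-305 the minor 5p arm held 5.14%, 9.14% and 5.34% of hairpin reads in mock and 8.96%, 13.2% and 11.7% at Pe day 3. One mock library reached into the Pe day 3 range. The log2(5p/3p) rose by 0.88 ± 0.32 (adjusted p = 0.040). This call was lost with a pseudocount of 1 or 8 reads, without the filter, in the 6 libraries alone and without limma's trend and robust options (adjusted p 0.051 to 0.11). The largest changes that did not pass were those of miR-308, at -2.79 ± 1.17 (adjusted p = 0.18), and of miR-314, at 2.29 ± 0.96 (adjusted p = 0.18). For miR-314 the 5p arm held 71.4% and 66.3% in Pe day 3 replicates 2 and 3, but 21.4% in replicate 1, which is within the mock range of 11.9% to 26.0%.

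**Figure D3:**
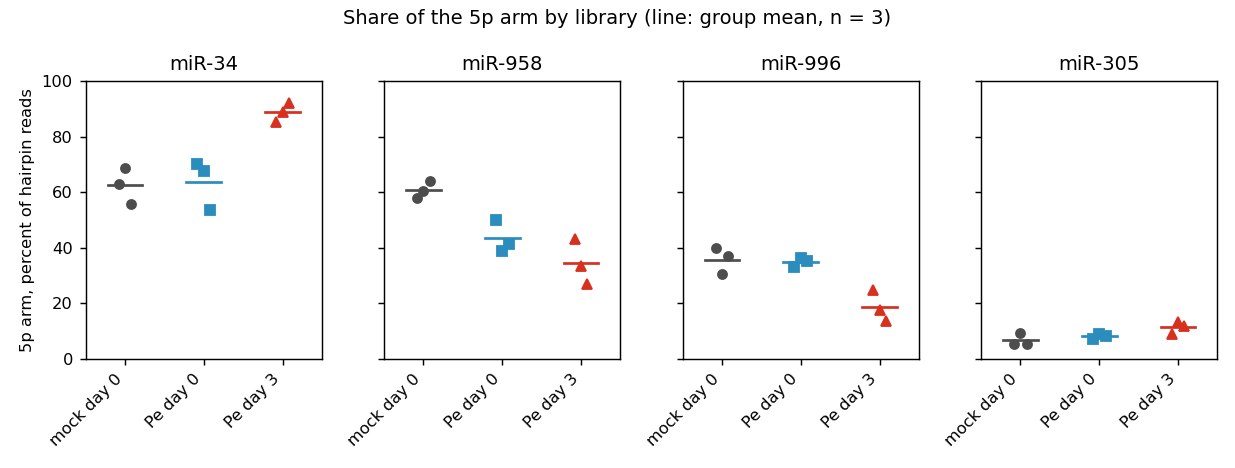
The y axis is the 5p arm as a percent of all reads of the hairpin, for the 4 hairpins whose arm balance was called. Points are libraries and lines are group means (n = 3). miR-34 and miR-996 at Pe day 0 lie with mock, whereas miR-958 at Pe day 0, at 38.9% to 50.1%, lies below every mock library.

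Summed over arms, 11 of 48 hairpins or groups of hairpins with a shared product were called, or 22.9%, of which 9 were higher (18.8%) and 2 lower (4.17%). The 2 lower totals were those of miR-10 (log2 change -0.61 ± 0.21, adjusted p = 0.040) and of the joined miR-281 copies (-1.02 ± 0.26, adjusted p = 0.013). The higher totals repeated miR-34, miR-1, miR-10404, miR-12, miR-275, miR-996 and miR-314. The groups did not overlap for 15 totals, or 31.2%. miR-278 and miR-308 passed as totals although neither arm passed alone. miR-278 went from 81.1, 87.7 and 84.3 scaled RPM in mock to 182, 111 and 175 at Pe day 3 (log2 change 0.82 ± 0.27, adjusted p = 0.038). miR-308 went from 13.2, 55.1 and 16.9 to 214, 91.0 and 93.1 (2.19 ± 0.63, adjusted p = 0.036). In both, every Pe day 3 library was above every mock library. Of the mock libraries of the miR-308 total, only that at 55.1 reached the filter of 20.1 RPM. No mock library of the miR-10404 total did, so both totals were tested only because Pe libraries passed that filter.

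Neighbouring hairpins on one strand were set against each other, as the log2 ratio of their totals in each library. Of 14 such pairs, 4 changed (28.6%), 1 toward the first named hairpin (7.14%) and 3 toward the second (21.4%). The groups did not overlap for 6 pairs, or 42.9%. This comparison was added after the values of the members had been seen. Several pairs share a hairpin, so the 14 are not independent results. Both ratios to miR-34 contain the called rise of miR-34, and that of miR-279 to miR-996 the called rise of miR-996. limma shared the spread over these dependent pairs, with 47.9 degrees of freedom for miR-277 to miR-34, so the smallest p-values may overstate the evidence.

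The miR-277 cluster of 3R holds mir-317, mir-277 and mir-34 in that order on the plus strand. Both ratios to miR-34 changed, while the ratio of its neighbours to each other was not called. The log2 ratio of miR-277 to miR-34 was -1.07, -1.60 and -1.29 in mock and -2.91, -3.29 and -3.73 at Pe day 3, with Pe day 0 in between at -2.31, -2.21 and -1.88. No library of one group fell into the range of another. The change between mock and Pe day 3 was -1.996 ± 0.27 (limma, adjusted p = 3.25e-08). The hairpin mir-277 at 3R:10100022-10100121 ends 814 bases before mir-34, and both lie in an exon of lncRNA:CR43459. The ratio of miR-317 to miR-34, whose hairpins are 9718 bases apart, was 0.03, 0.15 and 0.35 in mock and -0.75, -1.78 and -2.63 at Pe day 3 (-1.90 ± 0.44, adjusted p = 3.83e-04). The ratio of miR-277 to miR-317 was -1.10 to -1.75 in mock and -1.11 to -2.16 at Pe day 3, a change of -0.10 with a 95% interval from -0.79 to 0.59 (adjusted p = 0.83). miR-277, a miRNA of branched-chain amino acid breakdown and lifespan in flies, had 609, 741 and 687 scaled RPM of its 3p arm in mock and 754, 967 and 752 at Pe day 3 (log2 change 0.27 ± 0.22, adjusted p = 0.45). miR-317-3p had 1399 to 2587 and 1650 to 3512 (0.34 ± 0.31, adjusted p = 0.51).

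The pair of mir-279 and mir-996, 1499 bases apart in lncRNA:CR31044 on 3R, changed as well. The log2 ratio of miR-279 to miR-996 was 1.60, 1.45 and 2.04 in mock and 0.87, 0.25 and 0.21 at Pe day 3, so miR-279 was still the more abundant hairpin but by less. The change was -1.26 ± 0.26 (adjusted p = 8.42e-05). The Pe day 0 libraries, at 1.37, 1.01 and 1.68, lay lower than or within the mock range and above every Pe day 3 library.

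In the let-7 complex, the log2 ratio of let-7 to miR-125, which are cut from one transcript and time the fly's metamorphosis, rose from 2.06, 2.62 and 1.24 in mock to 3.05, 3.31 and 2.74 at Pe day 3 (1.06 ± 0.37, adjusted p = 0.023). Neither arm passed alone. let-7-5p had 329 to 619 scaled RPM in mock and 465 to 771 at Pe day 3 (log2 change 0.48 ± 0.25, adjusted p = 0.23), and miR-125-5p had 75.1 to 122 and 55.9 to 69.2 (-0.60 ± 0.31, adjusted p = 0.20). The other pairs with groups that did not overlap were miR-275 to miR-305, with a change of 0.68 ± 0.28 (adjusted p = 0.052), and miR-12 to miR-283, with a change of 0.54 ± 0.26 (adjusted p = 0.11). miR-283-5p had 930 to 1030 in mock and 935 to 1281 at Pe day 3 (log2 change 0.23 ± 0.24, adjusted p = 0.55).

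**Figure D4:**
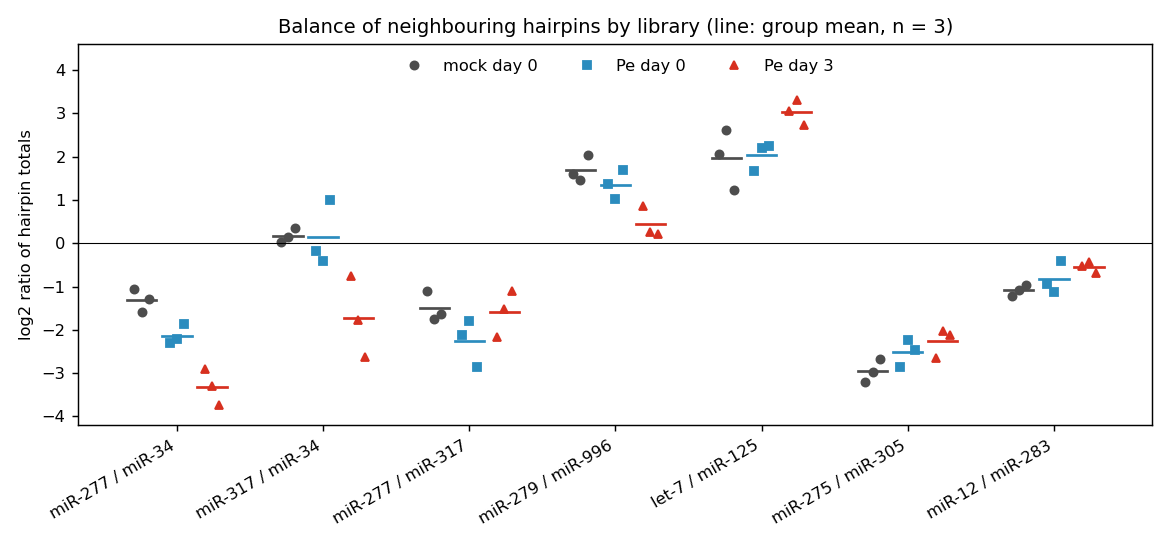
The y axis is the log2 ratio of the totals of 2 neighbouring hairpins within a library. Points are libraries and lines group means (n = 3). Both ratios to miR-34 were lower at Pe day 3, with changes of -1.996 and -1.90, while miR-277 to miR-317 gave -0.10.

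Lists of hairpins by cluster, role or seed are described by counts against the 17.8% called among all tested and the median of 0.21. Of 5 arms of the miR-277 cluster 1 was higher, of 4 of the miR-275 cluster 2, of 2 of the miR-12 cluster 1, and of 3 of the miR-9c cluster 0, where the log2 changes were 0.50 ± 0.34 for miR-9b-5p, -0.36 ± 0.35 for miR-306-5p and -0.14 ± 0.29 for miR-9c-5p, with adjusted p of 0.39, 0.52 and 0.75. Among 14 arms of midgut and progenitor miRNAs, which include bantam and miR-8, 2 were higher and 0 lower, with a median of 0.15. Among 16 arms of metabolic and growth miRNAs 1 was higher, with a median of 0.02, and the log2 change was 0.44 ± 0.26 for miR-14-5p (adjusted p = 0.29). The ageing list had 1 of 6 higher, miR-34-5p, with a median of 0.37. Of 6 arms of the tissue label list of miR-263a, miR-281 and miR-31a, 0 were higher and 2 lower, both of miR-281, with a median of -0.35. The sensory and proneural list had 1 of 6, miR-996-3p, with a median of -0.05, and its miR-9a-5p changed by -0.40 ± 0.67 on the log2 scale, at an adjusted p of 0.72. Of 8 arms of the K box hairpins, 0 passed the limma test. The 3p arms of these hairpins carry the K box seed and are known in flies as repressors of pro-apoptotic genes. An unadjusted p under 0.05 was found for 2 of the 8, against 19 of all 73 tested. These moved in opposite directions, with log2 changes of 3.20 for miR-308-3p and -0.49 for miR-11-5p. There miR-2b-3p had 1190 to 1207 in mock and 685 to 1139 at Pe day 3 (-0.37 ± 0.24, adjusted p = 0.36), and the log2 change was 0.56 ± 0.39 for miR-2b-2-5p (adjusted p = 0.39).

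In the authors' deposited table, whose second contrast matched Pe day 3 over mock, 14 of 107 miRNAs with an adjusted p were called, 8 higher and 6 lower. Of these, 11 were called here too, which is 78.6% of the authors' calls and 84.6% of the 13. Called in the authors' deposited table alone were miR-1007-5p, which did not pass the filter here, together with miR-11-5p and miR-2b-3p, which come from K box hairpins. Called here alone were miR-305-5p and miR-958-3p, with log2 changes of 0.63 and 0.65 and adjusted p of 0.077 and 0.21 in the authors' deposited table.

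Of the 13 calls, all but 4 were lost in at least 1 fit that left out 1 library, among them that of miR-314-5p, one of the larger rises. Such a fit also has fewer libraries, so a lost call does not show that the library alone decided it. For miR-281-1-5p the log2 change was larger than in the full fit wherever the call was lost. Without mock replicate 1 the count of called miRNAs was 4, without mock replicate 3 it was 6, and without Pe day 3 replicate 2 it was 4. The calls that held whichever of the 9 libraries was left out were 4: miR-34-5p, miR-1-3p, miR-10404-5p and miR-958-5p. The filter was not redone in these fits, and miR-10404-5p had passed it through the Pe libraries alone. miR-996-3p lost its call without mock replicate 1 or 3 or Pe day 3 replicate 2 (log2 changes 0.83 to 0.99, adjusted p 0.11 to 0.15). miR-281-2-5p lost it without mock replicate 1 or Pe day 3 replicate 2 (-1.19 to -0.96, adjusted p 0.058 to 0.096), and miR-281-1-5p without these or mock replicate 3 (-1.11 to -1.07, adjusted p 0.096 to 0.11). miR-10-5p lost it without mock replicate 1 or 3, the first Pe day 0 library or Pe day 3 replicate 2 (-0.76 to -0.64, adjusted p 0.059 to 0.098). miR-12-5p lost it without mock replicate 1, the third Pe day 0 library or Pe day 3 replicate 2 or 3 (0.53 to 0.65, adjusted p 0.078 to 0.27). miR-275-3p lost it without mock replicate 1 or 3, the third Pe day 0 library or Pe day 3 replicate 2 (0.54 to 0.82, adjusted p 0.089 to 0.28). miR-314-5p lost it without mock replicate 1 or 3, the first Pe day 0 library or Pe day 3 replicate 2 or 3 (1.35 to 1.93, adjusted p 0.069 to 0.18). miR-305-5p and miR-958-3p lost it in 7 of 9 such fits each, miR-305-5p in all but those without mock replicate 2 or Pe day 0 replicate 2 (0.49 to 0.79, adjusted p 0.057 to 0.38) and miR-958-3p in all but those without the second Pe day 0 or the first Pe day 3 library (0.40 to 0.78, adjusted p 0.055 to 0.33).

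The arm balances of miR-34 and miR-958 and the ratios of miR-277 to miR-34 and of miR-279 to miR-996 were called in all 9 of these fits. The arm balance of miR-996 lost its call without mock replicate 1 (-1.14, adjusted p = 0.11), and that of miR-305 in 7 of the 9 fits, all but those without mock replicate 2 or Pe day 3 replicate 1 (0.72 to 0.88, adjusted p 0.051 to 0.34). The ratio of miR-317 to miR-34 lost its call without the third mock, the second Pe day 0 or the third Pe day 3 library (-1.90 to -1.44, adjusted p 0.050 to 0.053). The ratio of let-7 to miR-125 lost it in 6 of the 9 fits, among them each fit without a Pe day 3 library, mock replicate 1 or 3, or Pe day 0 replicate 2 (0.69 to 1.21, adjusted p 0.050 to 0.11). Among hairpin totals, miR-34, miR-1 and miR-10404 were called in all 9, while the call was lost by miR-281 in 2 of them, by miR-10 and miR-12 in 5 each, by miR-308 and miR-996 in 6 each, by miR-275 and miR-314 in 7 each and by miR-278 in 8. The log2 change of the miR-314 total went as low as 0.29 in these fits, that of miR-275 to 0.37 and that of miR-996 to 0.51. With RPM as deposited, none of the 4 lower miRNAs was called, with log2 changes of -0.36 for miR-10-5p, -0.53 for miR-958-5p, -0.74 for miR-281-2-5p and -0.76 for miR-281-1-5p. Under median-of-ratios scaling 4 of the higher miRNAs were not called: miR-314-5p (1.78, adjusted p = 0.12), miR-305-5p (0.63, adjusted p = 0.11), miR-958-3p (0.60, adjusted p = 0.11) and miR-12-5p (0.63, adjusted p = 0.051). Limma voom on recovered reads did not call miR-314-5p (1.88, adjusted p = 0.10) or miR-958-3p (0.73, adjusted p = 0.055). A total that leaves out the 5 most abundant miRNAs, and the fit to the 6 libraries alone, each ended both calls of the miR-275 cluster, that of miR-958-3p and that of miR-12-5p. Without limma's trend and robust options none of the 4 lower miRNAs was called, nor were miR-305-5p and miR-958-3p, and without the filter miR-305-5p, miR-958-3p, miR-281-1-5p and miR-10-5p were not. With TMM over the tested miRNAs, neither miR-305-5p (adjusted p = 0.052) nor miR-314-5p (adjusted p = 0.14) was called.

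**Figure D5:**
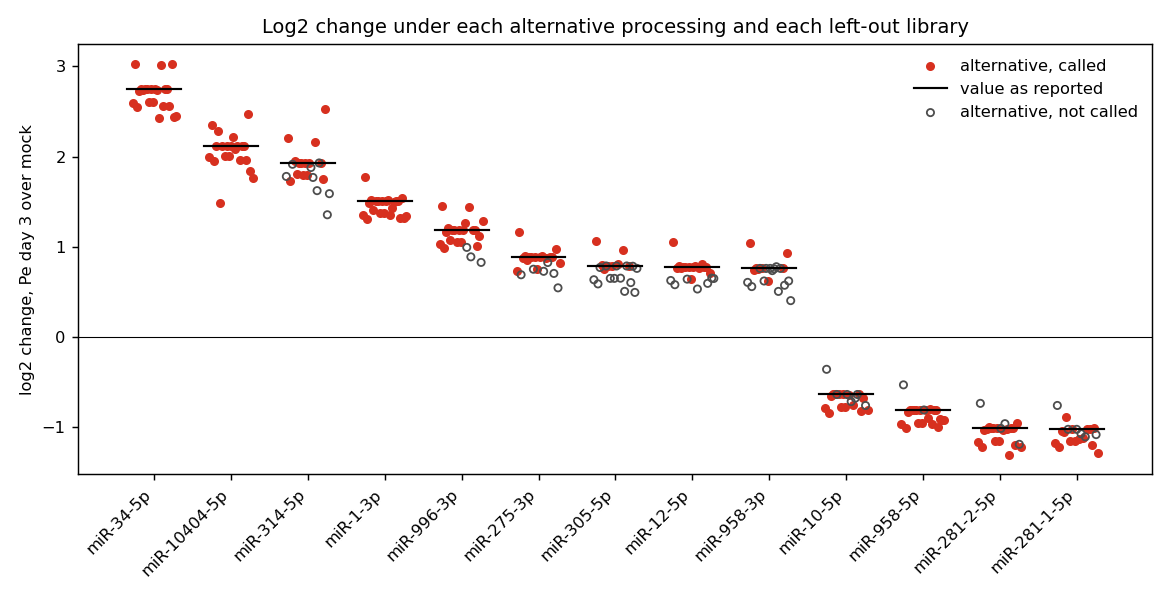
For each of the 13 called miRNAs the y axis gives the log2 change of Pe day 3 over mock as reported (line), and under each alternative processing or left-out library (points). Filled points were called at an adjusted p under 0.05 and open points were not. No point crosses zero, and every point of miR-34-5p, from 2.43 to 3.03, is filled.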

How the data were processed

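Small RNA libraries were made from 2 µg of total RNA with the Illumina TruSeq Small RNA kit, per the labels' protocols. The expression table, whose name mentions the miRNA counter miRge, holds RPM computed by the authors. Which aligner and genome build made it is not given in the sources used here. Another table, the authors' deposited comparison table, holds a mean signal, log2 fold changes, a Wald score and p-values. Per the submitters' processing notes, DESeq2 1.22.0 was used. In the comparison table, the second contrast was matched to Pe day 3 over mock by value, with a largest difference of 0.045 over 47 miRNAs.

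RPM were whole multiples of a step per library, which gave the read totals. The filter kept miRNAs with 20.1 RPM in at least 3 libraries, which is 10 reads where the depth is the median of 497997, and 99.96% of the reads remained. limma 3.58.1 in R 4.3.3 (trend and robust) was fitted to log2(TMM-scaled RPM + 4.02) in all 9 libraries, with Benjamini-Hochberg adjustment over all features of a kind. Fold changes on that scale understate the change of scarce miRNAs. The code was tested on simulated data, with planted changes larger than most called here and none in the 5 most abundant miRNAs. How well it finds smaller changes was not tested. The labels do not say whether libraries came from separate pools of flies, so p-values measure the spread between these libraries, which may be technical. Read depth limits precision, and PCR copies are not independent molecules. Hairpin positions are from Ensembl's BDGP6.54 annotation, in which 465 of 467 names were found, among them all 73 tested. The planned totals over miRNAs with a shared seed were not run, since no mature sequences were used here. The named miRNAs follow a rule: all called, the other arm of their hairpin, hairpins with a called arm balance, the 6 smallest p above the threshold, the 5 most abundant, cluster neighbours, and up to 4 per list. Members and lists were chosen with earlier results of these data known.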

Additional observations from a re-analysis of the deposited data

Results flagged for a closer look

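miR-1007-5p did not pass the filter and so was not in the main test, only in the alternative run without the filter. Yet 41 reads of it were listed over the 3 Pe day 3 libraries and none in the 3 mock or the 3 Pe day 0 libraries. The value was noted because it is a signal outside the miRNAs of the main test that the control libraries lack. The authors' deposited table gives it a log2 fold change of 6.33 with an adjusted p of 0.0091.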

How the results depend on the processing

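The count of 13 called miRNAs was 8 without limma's trend and robust options, all higher, and 4 to 15 with 1 library left out; it was 9 to 16 under the other alternatives. Of the 13, 9 were also called under median-of-ratios scaling and 9 when RPM were left as deposited. The 4 called arm balances became 2 without the filter and 2 to 9 with 1 library left out. The 11 called hairpin totals became 6 with median-of-ratios factors, 5 with a total that leaves out the 5 most abundant miRNAs, 7 with TMM over the tested miRNAs (added after seeing the data), 7 without the filter, 7 with the 6 libraries alone and 3 to 12 with 1 library left out. The 4 called neighbour ratios became 2 to 5 with 1 library left out. The causes were not tested. Some small changes turned their sign: miR-184-3p to -0.0056 with median-of-ratios factors and -0.052 without the 5 most abundant in the total. miR-184-3p was instead called higher by limma with RPM as deposited (log2 change 0.43, adjusted p = 0.027). With RPM as deposited the log2 change was 0.18 for miR-996-5p, 0.12 for miR-10-3p, 0.18 for miR-305-3p, 0.25 for miR-31a-5p and 0.13 for miR-9c-5p, and with limma voom on recovered reads it was 0.16 for miR-996-5p. With 1 library left out, log2 changes ranged from -0.066 to 0.53 for miR-317-3p, -0.38 to 0.25 for miR-996-5p, -0.22 to 0.016 for miR-31a-5p, -0.038 to 0.15 for miR-184-3p and -0.054 to 0.34 for miR-277-3p. None of the 13 called miRNAs changed sign in any alternative run.

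Same-numbered mock and Pe day 3 libraries did not deviate together (correlations of their deviations -0.02 to 0.08, where other numbers gave -0.07 to 0.06), so the numbers were not taken as pairs in this comparison. Pe day 0 is in the model too, and its libraries did deviate with the mock libraries of the same number (0.24 to 0.43, against -0.40 to 0.11 for other numbers), each correlating best with its own number. With Pe day 3 libraries they gave -0.26 to 0.22, so this is a hint from the data, not from the design. With the replicate number as a block, 14 miRNAs, 7 arm balances, 11 hairpin totals and 5 neighbour ratios were called in all 9 libraries, and 16, 1, 9 and 5 in the 6 libraries alone. In the 9 libraries the block ended the calls of miR-958-3p (adjusted p = 0.11) and of the miR-314 total (0.053), and added miR-308-3p, the ratio of miR-275 to miR-305, and miR-956-3p (log2 change -0.34, adjusted p = 0.025). In the 6 libraries it ended those of miR-305-5p (0.074), of the arm balances of miR-305, miR-958 and miR-996 (0.059 each), and of the totals of miR-275, miR-278 and miR-314 (0.053 to 0.071). There it added miR-956-3p (-0.48, adjusted p = 1.75e-09), miR-278-3p, miR-11-5p, miR-125-5p and the ratio of miR-275 to miR-305. Both of these changes of miR-956-3p are in scaled RPM, so their size depends on the scaling. In RPM as deposited its ranges overlapped, at 722808 to 785144 in mock and 698305 to 748609 at Pe day 3. Without the block, limma on RPM as deposited did not call miR-956-3p. The planned totals by shared seed were not run. Scarce miRNAs, with a median SE of 0.42 below 100 RPM, limit what could be called at this depth.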
